A study of Homo sapiens with 28 samples.

Results

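The 38 genes described here encode the checkpoint and damage signalling machinery of human cells, and they were taken by name from a list. The rule uses no measured value, although earlier results of these data were known when the list was drawn up. They fall into 5 roles: 12 genes of the ATR branch, 14 of ATM and break signalling, 3 cell cycle effectors, 2 PARP genes and 7 genes of damage bypass. All 38 were found among the 19970 protein-coding genes of GENCODE release 44 on hg38. The region of a gene was its annotated length plus 5 kb on either side, and its promoter was the stretch of 1 kb on either side of the canonical start. Coverage is the percentage of the bases of a region that lie under a peak.

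Both experiments used U2OS, a human osteosarcoma cell line. Dimethylated lysine 36 of histone H3 (H3K36me2) was mapped by ChIP-seq in wild-type (WT) cells, in 2 replicates of unirradiated cells and in 2 of cells left for 3 h after UV-C at 20 J/m2. The carboxy-terminal part of ASH1L (CTD), with a Flag tag, was mapped with anti-Flag antibodies in ASH1L-/- cells, with 3 replicates in each of the same conditions. The ASH1L-/- cells were clones made with CRISPR/Cas9, and the CTD came from a transiently transfected plasmid with a CMV promoter, so its level was not that of the endogenous protein. No full-length ASH1L was present in the CTD cells, and H3K36me2 was not measured in them here. The replicates are called biological replicates in the labels, which do not say more about their source, and the p-values measure the spread between these samples.

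The data are 10 lists of broad peaks, 1 for each replicate, and each held exactly 500000 peaks. The number of peaks could therefore not differ between lists, and the lists carry no read depth, so precision rests on the spread between replicates. The peaks covered 401.1 to 458.3 Mbp in the H3K36me2 lists and 268.7 to 333.8 Mbp in the CTD lists. As a check of the labels, the highest fold enrichment inside ASH1L, part of which was carried by the plasmid, was 26.7, 5.87 and 41.2 in the CTD lists without UV and 18.1 to 18.9 at 3 h, against at most 2.46 in the H3K36me2 lists. Replicate 2 of the CTD without UV thus stood below the other CTD lists. The control for the CTD differed between the conditions, being the matched empty-vector ChIP without UV and the pooled empty-vector ChIPs at 3 h, so condition and control cannot be told apart in the CTD comparison.

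The pathway starts from a pair of related kinases. ATR, held at single-stranded DNA by ATRIP, responds to stalled replication and to the gaps left by excision of UV lesions, and it is switched on by TOPBP1, which acts with the ring-shaped RAD9A-RAD1-HUS1 clamp, and by ETAA1. ATM responds mainly to double-strand breaks, where it is recruited by MRE11, RAD50 and NBN, and both kinases phosphorylate the histone variant H2AX. H3K36me2 is placed by several methyltransferases, ASH1L among them, and is found in broad domains of intergenic and genic chromatin.

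H3K36me2 was sparse over these genes. The members' regions, 2973 kb in all, were covered to 4.31% and 4.46% without UV and to 3.19% and 2.88% at 3 h, whereas the regions of all protein-coding genes were covered to 14.2% and 14.1% without UV and to 11.6% and 11.8% at 3 h. The per-gene median was also lower in every list, at 1.71% and 3.00% without UV and 1.94% and 1.18% at 3 h for the members, against 8.29%, 9.39%, 4.93% and 4.89% for all genes. Averaged over the 4 lists, 33 of the 38 members lay below the median of all genes, 19 lay below the 25th percentile and 2 lay above the 75th. A set of 60 other genes of the same pathways (replication, repair and cell cycle genes that are not members) had a median of 3.25% and 3.86% without UV and 2.11% and 1.89% at 3 h, close to the members. Their summed coverage of 13.9% to 15.4% was close to that of all genes, but RAD51B and BABAM2 carried much of it. RAD51B had a mean of 452600 covered bases without UV and 468900 at 3 h, and BABAM2 had 149000 and 150000. ZRANB3 came next with 42160 and 35030. The share of member bases under a peak in all 4 lists was 0.831%, compared with 3.86% for all genes, and 91.8% of member bases were under no H3K36me2 peak, compared with 73.4%.

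**Figure D1:**
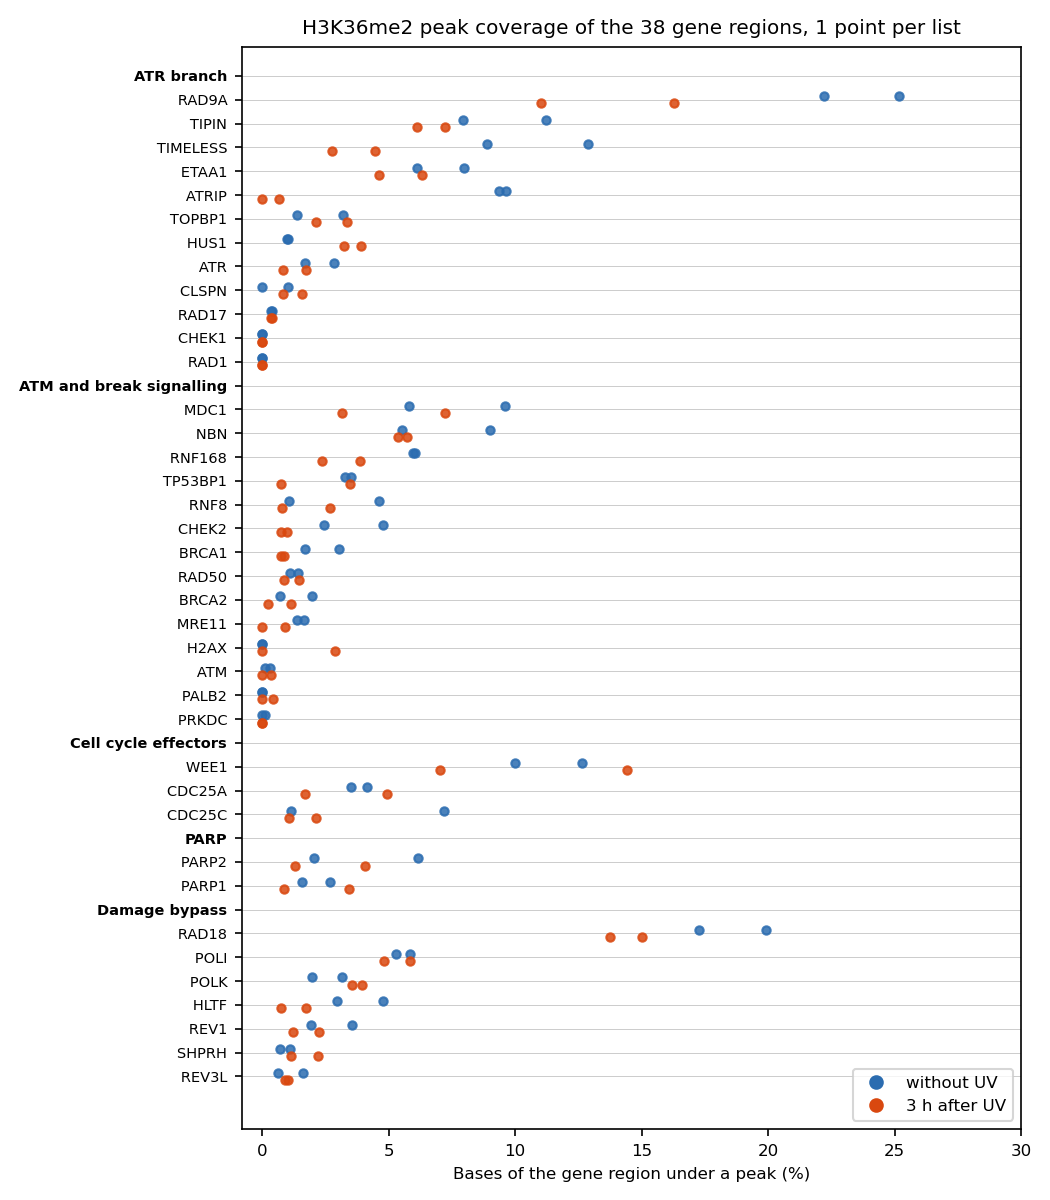
H3K36me2 coverage of the 38 gene regions in percent of bases (horizontal axis), 1 point for each list, grouped by role (blue, 2 lists without UV; orange, 2 lists at 3 h after UV). Most genes lie below 10% in every list, and RAD9A and RAD18 reach 25.2% and 19.9%.

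The difference from all genes was larger inside the genes than in front of them. Between 5 kb and 1 kb before the start, the members were covered to 16.1% and 18.0% without UV and to 13.3% and 11% at 3 h, near the 17.2%, 17.5%, 12.2% and 12.1% of all genes. From 1 to 50 kb past the start, coverage of the members dropped to 1.11% and 1.67% without UV and 0.889% and 0.762% at 3 h. Over the same stretch all genes had 12.3%, 12.9%, 9.30% and 9.34%, and the other pathway genes 3.94%, 4.05%, 3.45% and 3.02%. In every list the members were thus lower than both comparison sets past the start, while in front of the start the values overlapped. When peaks needed a −log10 p of at least 2, the members in front of the start had 6.88% and 5.23% without UV and 6.39% and 6.63% at 3 h, below the 9.84% and 9.41% of all genes without UV and near their 6.35% and 6.52% at 3 h. The other pathway genes, with 13.5%, 10.1%, 7.19% and 8.93%, then lay above the members in all 4 lists. These values are descriptions of 3 sets of genes without a test, and the sets also differ in make-up: the members' median gene length was 52.4 kb against 27.5 kb, and the median GC content of their regions 41.9% against 44.7%.

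Gene by gene, 14 of the 38 members had no H3K36me2 peak in any of the 4 lists from 1 to 50 kb past the start, or to the gene end where that came first. This is 36.8% of the members, against 20.5% of the 19477 protein-coding genes that reach past 1 kb and 28.3% of the 60 other pathway genes. The 14 were the effector kinase CHEK1, the ATR activators TOPBP1 and ETAA1, the clamp genes RAD9A, RAD1 and HUS1, the CHEK1 adaptor CLSPN, ATM, TP53BP1, H2AX, BRCA2, NBN, MRE11 and the CDK-inhibiting kinase WEE1. The stretch was only 0.592 kb long in H2AX, 5.4 kb in RAD9A and 9.2 kb in RAD1, against 49 kb in ATM and TP53BP1. The absence of a peak says less where the stretch is short. Mean coverage was under 1% in 24 members (63.2%, against 30.5% of all genes and 63.3% of the other pathway genes). None of the 38 members reached 5%, whereas 49.4% of all genes and 20.0% of the other pathway genes did. The highest was POLK, which encodes a translesion DNA polymerase, at a mean of 4.62%.

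**Figure D2:**
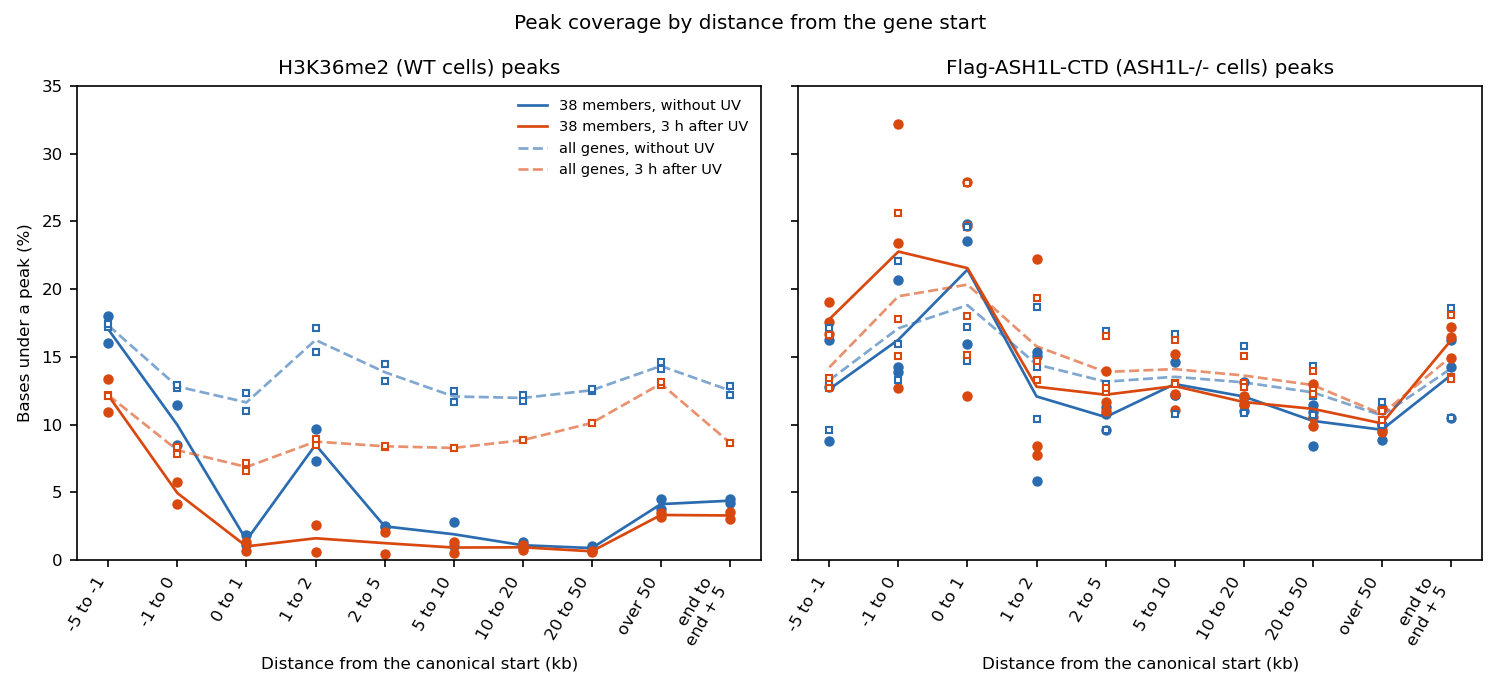
Percentage of bases under a peak (vertical axis) by distance from the start of the gene (horizontal axis), for the 38 members and for all protein-coding genes, with the values of the single lists. For H3K36me2, over the whole stretch from 1 to 50 kb past the start, the members lie between 0.762% and 1.67% and all genes between 9.30% and 12.9%, with the members' highest values there in the first bin without UV, and for the CTD both sets lie near each other.

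Beyond 50 kb the summed coverage of the members was 4.50% and 3.77% without UV and 3.19% and 3.47% at 3 h, and RAD18 alone held most of it. Without RAD18, which encodes the ubiquitin ligase that modifies PCNA at stalled forks, the values were 0.648%, 0.655%, 0.685% and 0.541%, against 14.6%, 14.1%, 12.9% and 13.2% for all genes. RAD18 (chr3:8775402-8963773, minus strand) was covered over its region to 19.9% and 17.3% without UV and to 13.8% and 15.0% at 3 h. Its first 50 kb held little, with 2.75%, 4.31%, 1.39% and 2.29%, and the stretch from 100 to 150 kb held much more, with 34.4%, 27.8%, 22.6% and 22.4%. The canonical transcript ends before that stretch, and with 5 kb flanks (96.4 kb in all) it was covered to 5.30% and 6.54% without UV and to 5.86% and 4.08% at 3 h. In all 4 lists the peaks of RAD18 thus lay mostly in the part of the annotated gene past the end of the canonical transcript.

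RAD9A, a subunit of the checkpoint clamp, was the other gene with high coverage, and its position shows how the annotation bears on the value. The annotated gene (chr11:67317871-67398410, plus strand) is 80.5 kb long because some transcripts start far upstream, and its region also holds the genes POLD4, CLCF1 and PPP1CA. Over the whole region it was covered to 22.2% and 25.2% without UV and to 16.3% and 11% at 3 h. The 25 kb before the canonical start were covered to 42.0% and 44.1% without UV and 17.8% and 23.2% at 3 h, but the canonical transcript itself was at 0 in every list. TP53BP1, which encodes a reader of chromatin at breaks, was similar: its region had 3.27% and 3.52% without UV and 3.49% and 0.737% at 3 h, and its canonical transcript with the 5 kb flanks had 0 in both lists without UV and 0.754% and 0 at 3 h.

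The apical kinases had little of the mark. ATR (chr3:142449007-142578733, minus strand) was covered to 1.71% and 2.84% without UV and to 1.73% and 0.825% at 3 h. ATM (chr11:108223044-108369102, plus strand), 146.1 kb long, had 0.298%, 0.135%, 0.343% and 0, and PRKDC, the catalytic subunit of the DNA-dependent protein kinase, had a peak in 1 list only, with 0.107% in replicate 2 without UV. All 3 kinase genes lay below the 25th percentile of all genes. CHEK1 (chr11:125625163-125676255, plus strand) and RAD1 (chr5:34905260-34918989, minus strand) had no peak in any H3K36me2 list, a state found in 6.03% of all genes. Coverage in every H3K36me2 list was seen in 29 of the 38 members, against 71% of all genes.

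Genes of break signalling had the lowest summed coverage of the larger roles, at 2.19% and 2.14% without UV and 1.27% and 1.26% at 3 h. BRCA1 (chr17:43044295-43170245, minus strand), which acts in homologous recombination, had 1.71% and 3.03% without UV and 0.731% and 0.861% at 3 h. H2AX, a gene of 1.59 kb, had 0 in 3 lists and 2.90% in replicate 2 at 3 h, and PALB2, the link between BRCA1 and BRCA2, had 0 in 3 lists and 0.426% in the same replicate. The ATR branch had 5.77% and 6.48% without UV and 4.05% and 3.23% at 3 h, of which RAD9A made up a large part, and the damage bypass genes, RAD18 among them, had 6.40%, 5.89%, 5.00% and 5.05%. WEE1 came next after RAD9A and RAD18, with 12.7% and 10.0% without UV and 14.4% and 7.04% at 3 h, all of it in the flanks of the gene and none in its body.

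The question of the main comparison was whether H3K36me2 at these genes differed 3 h after UV. The mark was lower at 3 h at most of them, and by the median over gene regions not more so than at other genes. Of the 38 members, 33 had a peak in at least 2 of the 4 lists and entered the fit, and 27 of these had a difference below 0. The median log2 difference in covered bases was -0.47 for the members and -0.50 over all 17763 genes tested, so that the shift of all genes was as large as that of the members. After scaling to the bases covered in each list these medians were -0.36 and -0.37. Summed over the members, covered bases were 0.693 times those without UV, and peak centres fell from 161 and 164 to 139 and 121. The summed coverage given above fell by a larger share in the members than in all genes. At the promoters tested, 13 of them in members, the median log2 difference was -0.72 for the members and -0.45 for all genes. The promoters of HLTF, TIPIN, RNF8 and PARP2 had peaks only without UV. They passed the filter of 2 lists through that condition alone, so their differences had to be below 0. The promoters of all genes hold such cases too. These contrasts between the members and all genes were not tested.

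Only ATRIP and RAD9A, both of the ATR branch, were called lower (limma on log2 of covered bases plus 200, Benjamini-Hochberg over all genes tested, adjusted p under 0.05). They are 2 of 33 members, against a background of 13.2% of all genes called lower, and no member was called higher (background 0.186%). ATRIP (chr3:48446710-48467645, plus strand), which encodes the partner that carries ATR to single-stranded DNA, was covered to 9.36% and 9.65% of its region without UV and to 0 and 0.663% at 3 h. Both lists at 3 h were far below both lists without UV. The log2 difference was -3.46 ± 0.69 (SE), with an adjusted p of 0.0249 in limma. In replicate 1 without UV all of the coverage lay in the flanks. The region as a whole also overlaps TMA7, TREX1 and SHISA5. In replicate 2 peaks covered 1310 of the 9027 bases of the flanks outside the promoter, 1642 of the 19909 bases of the gene from 1 kb past the start, and 35 bases of the promoter. Without the flanks the call was lost (log2 difference -1.11, adjusted p 0.592 in limma), and it was also lost without replicate 1 without UV (adjusted p 0.238), without replicate 2 without UV (0.281) or without replicate 1 at 3 h (0.0525).

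RAD9A had a log2 difference of -0.81 ± 0.21 (SE) and an adjusted p of 0.048 in limma, from a mean of 21460 covered bases without UV to 12360 at 3 h. The groups did not overlap, and 53.4% of all genes tested were likewise lower in every list at 3 h. Its call was lost on the canonical transcript with 5 kb flanks (log2 difference -1.29, adjusted p 0.146 in limma), after scaling to the bases covered in each list (adjusted p 0.103), without the flanks (0.107), and without replicate 1 or 2 without UV (0.340 and 0.425) or replicate 2 at 3 h (0.149).

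TIMELESS and TIPIN, which form the fork protection complex, had differences below 0 that did not pass the test. TIMELESS, which travels with the replication fork, had 12.9% and 8.89% without UV and 4.47% and 2.77% at 3 h (log2 difference -1.48 ± 0.45, adjusted p 0.0696 in limma). Its partner TIPIN had 7.94% and 11.2% without UV and 6.11% and 7.22% at 3 h (-0.49 ± 0.31, adjusted p 0.326 in limma). The annotated gene of TIPIN reaches 30061 bases before the canonical start, and its canonical transcript with 5 kb flanks had 3.59% and 4.99% without UV and 1.76% and 0 at 3 h. In neither gene did the groups overlap, as in the 53.4% of all genes tested that were lower in every list at 3 h. CLSPN, which acts with this complex, had a difference above 0 (1.13 ± 0.87, adjusted p 0.416 in limma), from a mean of 310.5 covered bases to 715.5, with groups that overlapped. ATR itself overlapped between the conditions (-0.81 ± 0.54, adjusted p 0.34 in limma).

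In break signalling all 11 members tested had a difference below 0, as had 78.2% of all genes, with a median of -0.89, and none was called. The 4 members whose lists did not overlap were CHEK2, the effector kinase of ATM, BRCA1, RNF168, a ubiquitin ligase that acts on H2A-type histones at breaks, and the nuclease gene MRE11. Damage bypass genes were split. RAD18 and HLTF, a DNA translocase and PCNA-modifying ligase, were lower in both lists at 3 h, and POLK and SHPRH, another such ligase, were higher in both. POLK (chr5:75511845-75609991, plus strand) had 3.16% and 1.98% without UV and 3.54% and 3.95% at 3 h. Its difference of 0.54 ± 0.39 was the only one above 0 among the 8 members with a mean of at least 5 peak centres (adjusted p 0.379 in limma), and it was -0.37 when peaks needed a −log10 p of at least 2. Over all roles, 10 of the 33 members were lower in every list at 3 h, against a background of 53.4% of all genes, and 3 were higher in every list, against 7.31%.

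Counting peak centres in place of bases, no member was called, against a background of 3.04% of genes called lower and 0.26% called higher. The lowest adjusted p among the members was 0.0817 in limma, and 6 of 33 members were below 0.05 before adjustment. TIMELESS had a mean of 5.5 centres without UV and 2 at 3 h, BRCA1 had 6.5 and 3, and SHPRH had 2 and 4. Among the 53 other pathway genes tested, covered bases of 3 genes were called lower: RFC2, a subunit of the clamp loader, from a mean of 2141 bases to 0, PKMYT1, a kinase that inhibits CDK1 as WEE1 does, from 2985 to 193.5, and MAD2L2, the partner of REV3L in DNA polymerase zeta, from 4107 to 243.5. By peak centres, RFC2 (from a mean of 2 to 0) and AURKA, a mitotic kinase (from 1 to 0), were called lower. Both passed the filter of 2 lists through the condition without UV alone, so their differences could only be below 0. The covered bases of RFC2 have the same limit.

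The promoters of 20 members had no H3K36me2 peak in any list, which holds for 50.1% of all genes. Summed over the 38 promoters, 6.65% and 4.77% of bases were covered without UV and 3.22% and 2.73% at 3 h. Every list at 3 h was lower than every list without UV, as for all genes (11.8% and 12.6% against 7.21% and 7.79%). Of the 13 promoters that could be tested, none was called, as for all genes (0.0% of 7019), although 4 members and 1756 genes were below 0.05 before adjustment in limma. The lists did not overlap in 7 members that were lower at 3 h (background 44.2%) and in none that was higher (7.12%). Of the 7, HLTF, TIPIN, RNF8 and PARP2 had promoter peaks only without UV. They passed the filter of 2 lists through that condition alone, so their lists could not overlap, and the background holds such genes too.

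A promoter covered in both lists without UV and in neither list at 3 h was found in 4 members (10.5%, against 6.23% of all genes), and the opposite in none (0.836% of all genes). The promoter of HLTF had 20.6% and 17% without UV, that of TIPIN 12.8% and 7.55%, that of RNF8, the ubiquitin ligase upstream of RNF168, 2.40% and 13.3%, and that of PARP2 5.10% and 3.80%, each with 0 in both lists at 3 h. Such a 0 says that no peak among the 500000 of a list reached into the promoter, not that the mark was absent. RNF168 was close to this pattern, with 27.9% and 27.4% without UV and 6.75% and 0 at 3 h. Coverage in all 4 lists was seen at the promoters of ETAA1, HUS1, BRCA2 and MDC1, the scaffold that binds phosphorylated H2AX. Which promoters showed the pattern depended on the definition, since with 2 kb on either side they were those of ATRIP, TIPIN, WEE1 and PARP2, with the outermost annotated start those of RNF8, NBN, PARP2 and HLTF, and at a −log10 p of at least 2 that of TIPIN alone. Without replicate 1 at 3 h the pattern was found in 7 members.

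**Figure D3:**
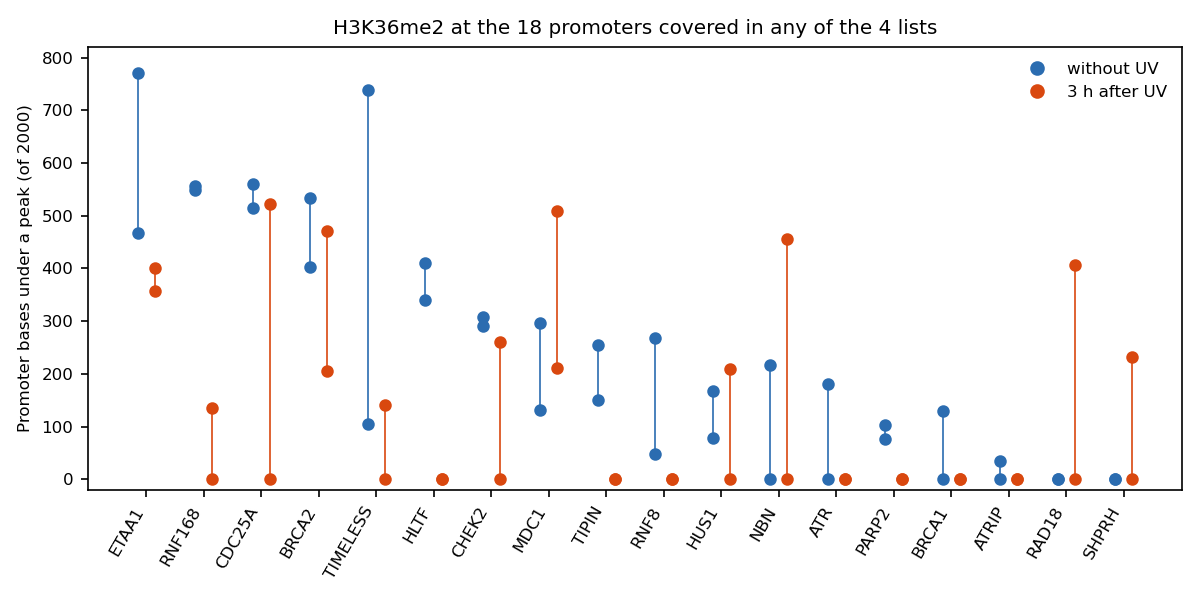
Bases under an H3K36me2 peak in the members' promoters, of the 2000 bases that lie 1 kb either side of the canonical start. Each point is 1 list (blue, without UV, and orange, 3 h after UV). Only promoters covered in at least 1 H3K36me2 list are drawn. The promoters of HLTF, TIPIN, RNF8 and PARP2 are covered in both lists without UV and lie at 0 in both lists at 3 h.

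At the level of single sites, more bases lay under H3K36me2 peaks without UV alone than at 3 h alone. In the members, 23362 bases were covered in both lists without UV and in neither at 3 h, and 5986 in the opposite case. These are 0.786% and 0.201% of member bases, against 1.98% and 1.06% of the bases of all genes. Requiring that no peak of the other condition touched the site, 19 sites in 14 genes (8469 bases) were present without UV only, and 6 sites in 6 genes (1410 bases) at 3 h only. The 14 genes are 36.8% of the members, against 47.1% of all genes with such a site, and the 6 are 15.8%, against 25.9%. RAD18 held 4 of the 19. The 6 genes with a site at 3 h only were CLSPN, POLK, RAD18, REV1, RNF168 and TIPIN.

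The sequences of 2 of the sites at 3 h only, from those with the highest fold enrichment by the lower of both lists, show the stretches on which these counts rest. Both are from the forward strand of hg38, and capitals mark the bases shared by all lists that hold the site (at most 240, about the centre), with 30 bases in lower case on either side. No part of them is annotated as UTR. One lay in intron 1 of RNF168 (chr3:196491891-196492190), with a fold enrichment of 1.73 in both replicates. The other lay 1.77 kb before the start of CLSPN (chr1:35771601-35771900), with a fold enrichment of 1.72 and 1.83 in replicates 1 and 2. Their fold enrichments were near the middle of the peaks of the members as a whole, whose median was 1.73 to 1.83 in the H3K36me2 lists and whose highest value was 3.28.
RNF168: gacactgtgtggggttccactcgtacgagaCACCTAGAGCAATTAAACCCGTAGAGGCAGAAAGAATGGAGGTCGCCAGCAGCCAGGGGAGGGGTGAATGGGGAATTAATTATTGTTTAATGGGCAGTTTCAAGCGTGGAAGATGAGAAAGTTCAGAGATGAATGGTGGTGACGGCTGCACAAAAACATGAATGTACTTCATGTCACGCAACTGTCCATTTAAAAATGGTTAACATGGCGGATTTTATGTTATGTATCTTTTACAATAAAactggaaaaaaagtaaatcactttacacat
CLSPN: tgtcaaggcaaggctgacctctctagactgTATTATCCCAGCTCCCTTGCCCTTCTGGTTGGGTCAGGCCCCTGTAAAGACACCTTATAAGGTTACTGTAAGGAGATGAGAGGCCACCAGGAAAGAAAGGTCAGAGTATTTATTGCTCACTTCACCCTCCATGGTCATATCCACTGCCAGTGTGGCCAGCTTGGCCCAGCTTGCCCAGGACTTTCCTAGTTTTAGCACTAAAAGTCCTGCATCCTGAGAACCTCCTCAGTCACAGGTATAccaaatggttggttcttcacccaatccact

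The CTD was spread over the same genes at the level of other genes. The members' regions were covered to 12.6%, 12.3% and 10.5% without UV and to 12.7%, 12.5% and 12.6% at 3 h, and those of all genes to 14.0%, 11.6% and 10.3% without UV and 12.0%, 11.7% and 13.5% at 3 h. Of the 38 members, 36 had coverage in every CTD list, against 90.1% of all genes, and 20 lay below the all-gene median. From 1 to 50 kb past the start, where H3K36me2 was low, the CTD covered 9.96% to 12.2% of the members' bases, and every member had a CTD peak there in at least 1 list. All genes had 10.6% to 15.4% over that stretch and the other pathway genes 11.6% to 13.2%, so the sets lay much nearer to each other than in H3K36me2. Only 6.01% to 10.3% of the members' CTD peaks reached a −log10 p of 2, by list, against 32.4% to 38.5% for H3K36me2. With such peaks alone, the CTD covered 0.55% to 0.84% of the members' stretch and 0.46% to 0.91% of that of all genes. H3K36me2 then covered 0.081% to 0.66% of the members' stretch, so the contrast between CTD and H3K36me2 there rested mostly on weaker peaks.

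The members differed widely among themselves. ATRIP had the highest mean coverage, with 16.6%, 33.3% and 12.0% without UV and 26.1%, 36.2% and 27.1% at 3 h. RAD9A followed, with 37.4%, 26.1% and 14.2% without UV and 17.9%, 18.2% and 27.6% at 3 h, and then TIPIN, with 21.3%, 18.2% and 12.6% without UV and 13.3%, 30.2% and 27.3% at 3 h. Their order cannot be read, because replicates of each of these 3 genes spread widely.

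At the other end were SHPRH, HLTF and BRCA2. SHPRH had 0.994%, 2.16% and 3.33% without UV and 1.70%, 2.99% and 1.93% at 3 h. HLTF had 0, 1.65% and 3.88% without UV and 3.27%, 3.64% and 4.84% at 3 h, and BRCA2 had 1.32%, 3.05% and 1.80% without UV and 6.88%, 2.19% and 2.77% at 3 h. In no list did any of these 3 genes reach the lowest value of ATRIP, RAD9A or TIPIN. Among the apical genes, ATR had 5.53%, 4.20% and 5.23% without UV and 2.83%, 2.97% and 3.51% at 3 h, CHEK1 had 4.04%, 3.69% and 4.18% without UV and 5.98%, 4.11% and 2.23% at 3 h, and ATM had 8.36%, 12.6% and 14.8% without UV and 14.8%, 10.9% and 12.2% at 3 h. By role, damage bypass was lowest in every list, at 6.16% to 7.36%.

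**Figure D4:**
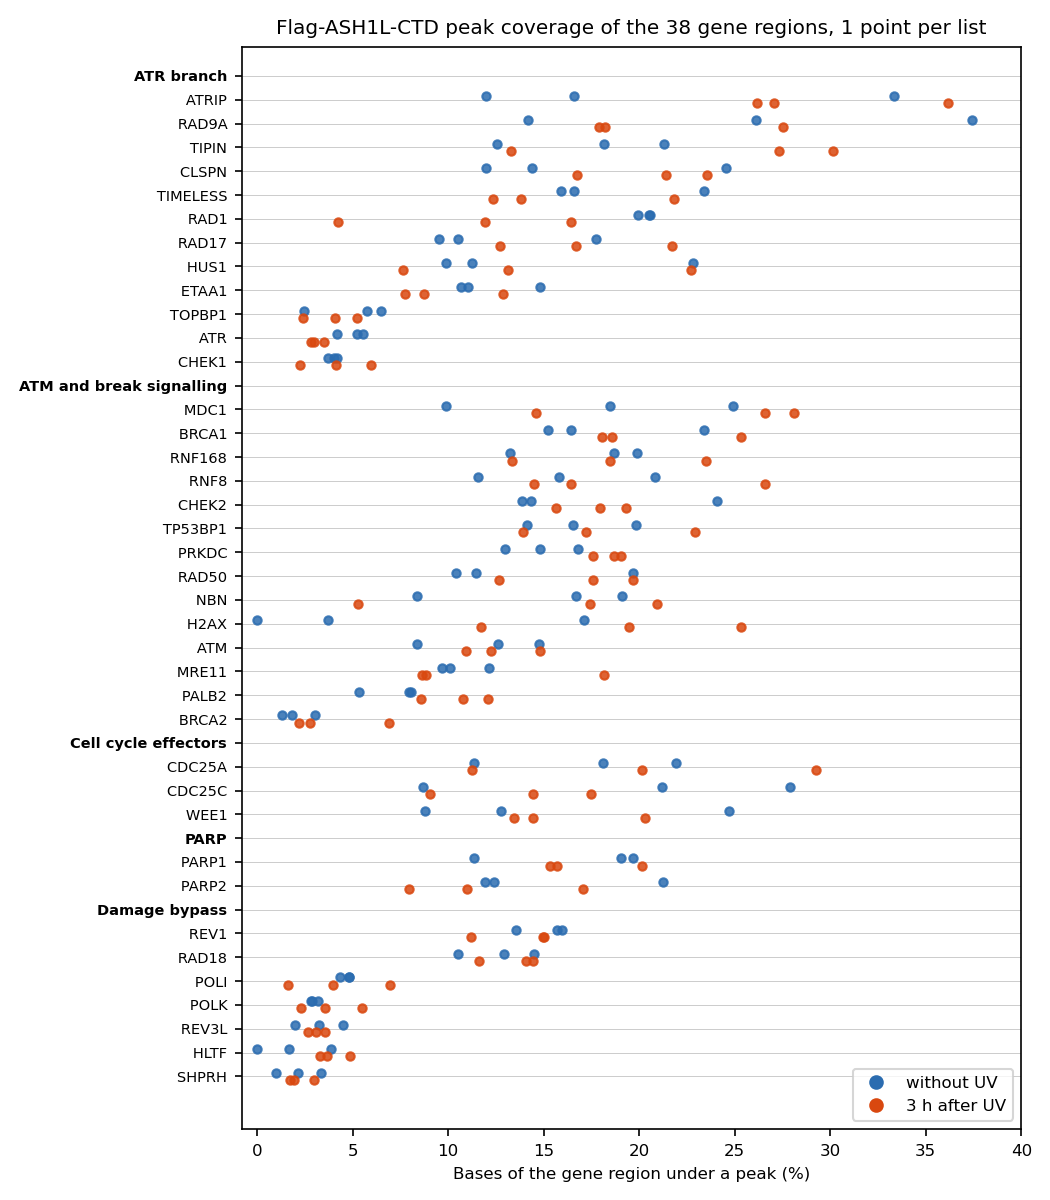
CTD coverage of the 38 gene regions in percent of bases (horizontal axis), 1 point for each list, grouped by role (blue, 3 lists without UV; orange, 3 lists at 3 h after UV). ATRIP and RAD9A reach 36.2% and 37.4%, and 5 of the 7 damage bypass genes stay at or below 6.97% in every list.

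The order of the members in the CTD lists followed the base composition of their regions. Across the 38 members, mean CTD coverage and GC content had a Spearman correlation of 0.81, and across all 19970 genes it was 0.65. For H3K36me2 the values were 0.25 and 0.068. The regions of ATRIP and RAD9A had a GC content of 49.6% and 52.4%, and that of SHPRH 35.5%. These correlations are across genes, which share the same libraries and are not independent replicates. The part of base composition in the CTD values was not tested. Mean coverage by H3K36me2 and by the CTD had a Spearman correlation of 0.43 without UV and 0.14 at 3 h across the 38 members.

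**Figure D5:**
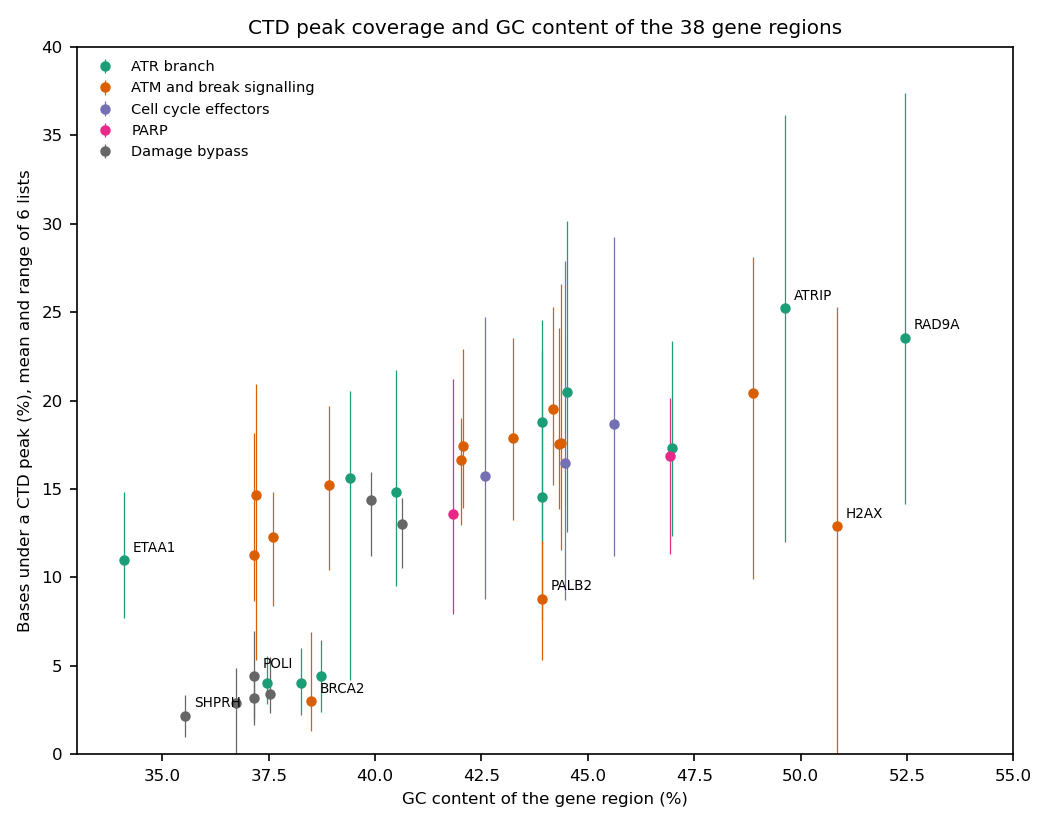
Mean CTD coverage of each gene region over the 6 lists (vertical axis, percent of bases; bars show the lowest and highest list) against the GC content of the region (horizontal axis, percent), 1 point for each of the 38 members, coloured by role. Regions below 40% GC include all members with a mean under 5%, and ATRIP and RAD9A stand at the upper right.

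No member was called in the CTD lists after UV by any of the 3 measures, which does not show that the levels were alike. For covered bases per region, peak centres per region and covered bases per promoter, 38, 38 and 37 members were tested, and none was called in limma, as for all genes (0.0% in each). Before adjustment, 0, 2 and 0 members and 412, 450 and 546 genes were below 0.05. The 2 members were RAD1, with a mean of 8.33 peak centres without UV and 3.67 at 3 h, and H2AX, with 1 and 4, and their adjusted p was 1 in limma. Without replicate 2 without UV, the list with the weaker signal at ASH1L, none was called either. With peaks shared by replicates, CHEK1 (log2 difference 1.19 ± 0.22, adjusted p 0.0281 in limma) and RAD1 (-1.13 ± 0.25, adjusted p 0.0427 in limma) were called by peak centres, among 1485 of 18670 genes. Such peaks are alike between replicates by construction, so these p-values rest on a reduced spread. Shared peaks made up 45.0% to 49.5% of the CTD lists without UV and 51.5% to 53.6% at 3 h. With all peaks, CHEK1 had a mean of 5.33 peak centres in both conditions. The median log2 difference of covered bases was 0.08 for the members and 0.09 for all genes.

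By role, 13 of the 14 genes of break signalling had a CTD difference above 0 in covered bases (median 0.21), against 4 of 12 in the ATR branch (median -0.13) and 11477 of all 19352 genes tested, none of them called. By peak centres the counts were 12 of 14 (median 0.12) and 5 of 12 (median -0.04). In covered bases per promoter the order was the reverse, with 8 of 14 (median 0.11) and 9 of 12 (median 0.23). Summed over the break signalling genes, the CTD covered 13.6%, 14.0% and 13.3% without UV and 16.6%, 16.2% and 14.2% at 3 h, whereas the ATR branch had 15.8%, 13.5% and 9.92% without UV and 11.7%, 12.9% and 14.5% at 3 h. Lists of the first did not overlap and those of the second did, and the difference between the roles was not tested. PALB2, with 7.94%, 8.06% and 5.33% without UV and 10.8%, 12.1% and 8.58% at 3 h, and PRKDC, with 12.9%, 14.8% and 16.8% without UV and 18.7%, 19.0% and 17.6% at 3 h, were the members that were higher in every list at 3 h (2 of 38, background 5.38%). ATR and RAD1 were lower in every list at 3 h (2 of 38, background 2.21%). RAD1 had 20.5%, 20.6% and 19.9% without UV and 4.21%, 16.4% and 11.9% at 3 h. On its canonical transcript with 5 kb flanks the lists of RAD1 overlapped, with 22.1%, 19.4% and 12.7% without UV and 4.94%, 19.3% and 14.0% at 3 h.

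Among members with a mean of at least 5 peak centres, the largest log2 differences above 0 were those of BRCA2 (0.78 ± 0.64), ATRIP (0.63 ± 0.43) and PALB2 (0.54 ± 0.48), and the largest below 0 those of RAD1 (-1.03 ± 0.59), ATR (-0.66 ± 0.41) and CDC25C (-0.38 ± 0.45), all with an adjusted p of 1.00 in limma. In each of them the SE was more than 0.5 times the difference. The value of ATR turned to 0.027 with peaks shared by replicates and to 0.37 with a −log10 p of at least 2, and that of PALB2 to -0.049 with the latter.

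At the promoters, ATM had a CTD coverage of 13.9%, 2.30% and 33% without UV and 49.8%, 48.5% and 95.2% at 3 h. That of WEE1 had 25.2%, 28.8% and 0 without UV and 43.1%, 74.5% and 49.4% at 3 h. These were the 2 members whose promoter was higher in every list at 3 h (background 5.36%), and CLSPN, with 57.9%, 17.6% and 31.1% without UV and 0, 16.1% and 0 at 3 h, was the only 1 that was lower (background 3.38%). The start of ATM lies within 1 kb of that of NPAT on the opposite strand, so that its promoter cannot be told from that of NPAT. No member promoter was covered in all CTD lists of one condition and in no list of the other.

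The precise positions of CTD peaks recurred little between replicates, which limits what single sites can show. Of the member bases under a CTD peak, 81.5% without UV and 78.3% at 3 h were covered in 1 list only, and 1.40% and 2.60% in every list of the condition, compared with 1.26% and 2.22% over all genes. For H3K36me2, with 2 replicates, 34.4% and 30.7% of the covered member bases were shared by both. Of 1521 clusters of overlapping CTD peaks in the members, 719 were held by 1 list and 5 by all 6. Member bases under H3K36me2 in at least 2 lists lay under a CTD peak in at least 3 lists in 12.7% of cases, and other member bases in 5.39%; for all genes these values were 10.3% and 4.51%.

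Clusters of the members held by all 6 CTD lists are the most recurrent positions, and 2 of those with the highest fold enrichment are shown, from the forward strand of hg38 and with the bases shared by all 6 lists in capitals. They lay past the end of ATRIP (chr3:48470176-48470278) and past the end of TIPIN (chr15:66335278-66335419). The fold enrichment without UV and at 3 h was 1.78, 1.99 and 1.79 against 1.70, 1.73 and 1.83 at ATRIP and 2.03, 1.83 and 1.84 against 1.74, 1.67 and 1.77 at TIPIN. Neither was far above the median of the members' CTD peaks, which was 1.75 to 1.84 by list. At ATRIP the conditions overlapped. At TIPIN every list at 3 h was below every list without UV, but how often this occurs at other clusters was not counted. The fold enrichments are also ratios to controls that differed between the conditions. Over the whole region of TIPIN the covered bases overlapped between the conditions (log2 difference 0.38 ± 0.38).
ATRIP: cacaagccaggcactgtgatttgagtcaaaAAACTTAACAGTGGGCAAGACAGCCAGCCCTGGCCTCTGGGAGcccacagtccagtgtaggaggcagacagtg
TIPIN: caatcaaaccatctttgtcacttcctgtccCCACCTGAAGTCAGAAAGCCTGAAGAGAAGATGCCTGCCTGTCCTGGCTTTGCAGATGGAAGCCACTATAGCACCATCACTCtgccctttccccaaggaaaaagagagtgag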

How the data were processed

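The genes were taken by name and not by value, but the genes and lists were chosen with earlier results of these data known. The authors trimmed the reads (Trim Galore 0.6.5), mapped them with BWA 0.7.17-r1188 to hg38 from which chromosome Y was left out, removed duplicates, blacklisted regions and alignments of low mapping quality, and called broad peaks for each replicate with MACS2 2.2.7.1, H3K36me2 against inputs pooled over duplicates. SAMtools 1.7, bedtools 2.29.2 and Picard are also named in the submitters' processing notes. The 500000 peaks of each deposited list carry a fold enrichment, the ratio of ChIP to control, and a −log10 p-value from the authors' peak calling, and read depth is not given in the lists. The runs added to deepen the H3K36me2 libraries, the inputs and the empty-vector ChIPs have no list of their own here.

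Covered bases and peak centres were counted in the region (gene with 5 kb flanks) and the promoter (1 kb either side of the canonical start) of 19970 protein-coding genes (GENCODE 44). For each assay the 3 h lists were compared with those without UV by limma 3.58.1 (R 4.3.3), two-sided, on log2(covered bases + 200) or log2(centres + 1), with a variance trend and Benjamini-Hochberg adjustment over all genes with a peak in at least 2 lists. Calls needed an adjusted p under 0.05. Fold changes are on these scales and understate those of low genes. The other assay was not in the fit.

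Described gene by gene were the members called, the 3 largest differences either way with at least 5 peak centres, the 3 highest and lowest in coverage, the hubs ATR, CHEK1, ATM, TP53BP1, H2AX, BRCA1 and PRKDC, promoters covered in 1 condition only, and single sites chosen by fold enrichment. Some sites are not reported here. Other members named in the text were picked after their values were seen. Alternatives were peaks shared by replicates, a −log10 p of at least 2, other pseudocounts and filters, scaling by covered bases, other region limits, a replicate block and leaving out each replicate. The block was not used in the main fit, since same-numbered samples did not deviate together (correlations from -0.27 to 0.015). Counts were checked against bedtools 2.31.1 and the fits tested on simulated data. Python 3.11.15, NumPy 2.4.6, pandas 2.3.3 and SciPy 1.17.1 were used.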

Additional observations from a re-analysis of the deposited data

How the results depend on the processing

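The direction of the summed H3K36me2 values was the same under every alternative run, whereas the count of members called depended on the setting. Of the 2 members called in H3K36me2 covered bases (2377 genes in all), the count was 14 with peaks shared by replicates (8482 genes), 0 with a −log10 p of 2 or more (0 genes), 0 with a pseudocount of 50 bp (1455), 1 after scaling to the bases covered (1267), 1 with a mean of at least 5 centres (2272), 0 without the flanks (588), 1 on the canonical transcript with flanks (1927), and 0 to 1 when a replicate was left out (877 to 1232 genes). Peaks shared by replicates are alike between replicates by construction. For H3K36me2 peak centres (0 members, 583 genes) the count was 13 with shared peaks (8767 genes), 2 with a −log10 p of 2 or more (803), 3 without the flanks (976), 1 on the canonical transcript (609) and 1 to 5 without 1 replicate (815 to 2582). With at least 5 centres it was 0 of 0 genes called. For H3K36me2 promoters (0 members, 0 genes) it was 5 with shared peaks (2370 genes), 1 with a pseudocount of 50 bp (815) and 0 to 4 without 1 replicate (0 to 1348), while a −log10 p of 2 or more called 501 genes and 0 members. The variance estimate for promoters without a filter is unreliable. For the CTD, shared peaks called 2 members by centres (1485 genes), and the other alternatives called none.

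The summed log2 differences that moved were, for H3K36me2 covered bases (-0.53), -0.68 with a −log10 p of 2 or more and -0.39 after scaling, for H3K36me2 centres (-0.32) -0.49 with a −log10 p of 2 or more and -0.23 to -0.43 without 1 replicate, and for promoters (-0.94) -1.62 with shared peaks. For CTD covered bases (0.10) they were 0.27 with shared peaks and -0.17 with a −log10 p of 2 or more, and for CTD centres (0.06) 0.23 and -0.030. Single genes that reversed were POLK in H3K36me2 (-0.37) and, in the CTD, PALB2 (-0.049) and ATR (0.37) with a −log10 p of 2 or more, and ATR (0.027) with shared peaks. The H3K36me2 coverage from 1 to 50 kb past the start, 1.11% for the members and 11% for all genes as a mean of 4 lists, was 0.518% and 8.50% with shared peaks and 0.377% and 5.43% with a −log10 p of 2 or more. The causes of these differences were not tested.

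The replicate numbers are not known to pair the samples. With a replicate block, 3 members (3699 genes) were called in H3K36me2 covered bases and 0 members (0 genes) by centres, and no member was called in promoters or in the CTD. The deviations of 2 replicates from their mean mirror each other. For H3K36me2 the same-numbered correlation of at most 0.015 is therefore a single value, and its sign alone sets which number is closest. Of the CTD samples without UV, at most 1 of 3 was closest to its own number. With 2 or 3 lists of peaks per condition and no read depth, differences of the size seen in most members could not be told from the spread between replicates.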
